A study of Mus musculus with 8 samples.

Results

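The genes described here are 8 genes that mark classical monocytes and the macrophages that have recently formed from them, *Ly6c2*, *Vcan*, *Plac8*, *Fn1*, *Cd14*, *Thbs1*, *Hp*, and *Chil3*. They were taken from the count table by symbol, they are 8 of the 54146 genes in the count table, and all 8 passed the filter on low counts that kept 17095 genes for testing. The table holds 8 bulk RNA-Seq libraries of epididymal white adipose tissue (eWAT), 1 of FCGR4+ and 1 of FCGR4- macrophages from each of 4 C57Bl6 mice. All 4 mice had eaten a high fat diet ad libitum for 24 weeks and then 30% less food for 2 weeks, a schedule the study calls short-term caloric restriction, so no library comes from an obese mouse without restriction or from a lean mouse. The macrophages were CD11b+ CD45+ cells negative for CD3, B220, Ly6G, and SiglecF, which were then split by surface FCGR4, an Fc receptor for IgG. The study used male mice and describes its obesity-inducing diet as high in both fat and cholesterol. The age at harvest is not given in the sources used here. The animal IDs in the labels carry one prefix for mice 1 and 2 and another for mice 3 and 4, and the labels do not say what the prefix stands for.

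Classical monocytes are the inflammatory subset of circulating monocytes. In the mouse they carry Ly6C and the chemokine receptor CCR2 on their surface, leave the bone marrow in response to CCL2 and its relatives, and enter inflamed tissue, where they lose Ly6C as they become macrophages. Obese adipose tissue takes up such cells, and genes for secreted matrix proteins and for lipopolysaccharide sensing are among those that newly arrived cells express. Nonclassical monocytes, the patrolling subset, are low in Ly6C and carry FCGR4 on their surface.

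For *Ly6c2*, *Plac8*, *Vcan*, and *Chil3*, the fitted difference between the mice of the 2 ID prefixes was larger in size than that between FCGR4+ and FCGR4- cells. *Vcan* was lower in FCGR4+ macrophages in 4 of 4 mice, at 6.05 ± 5.18 against 18.4 ± 17.3 normalized CPM (SD, n = 4 mice). It was the 1 gene of the 8 to pass the threshold, where 1.19% of all genes tested passed as lower. *Fn1*, *Cd14*, *Thbs1*, *Hp*, and *Chil3* also had lower means in FCGR4+ cells and did not pass in the main fit, edgeR's fit paired by mouse. DESeq2 with mouse and population in the model, which the study used, also called *Hp* and *Chil3* lower. It called 4.87% of all genes tested lower. *Ly6c2*, *Plac8*, *Vcan*, and *Chil3* were each higher in the 4 libraries of mice 3 and 4 than in the 4 of mice 1 and 2. The same held for 8.49% of all genes tested. By the fitted estimate *Ly6c2* was 17.5-fold and *Plac8* 20.4-fold higher. Between these mice *Ly6c2* and *Vcan* passed in edgeR, where 0.164% of all genes passed as higher, and *Plac8* did not (adjusted P = 0.221). This split was compared after the values had been seen, with 2 mice against 2. Normalized CPM are counts scaled to a common library size by edgeR's TMM method, and the threshold is an adjusted P of 0.1 over all 17095 genes tested.

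**Figure D1:**
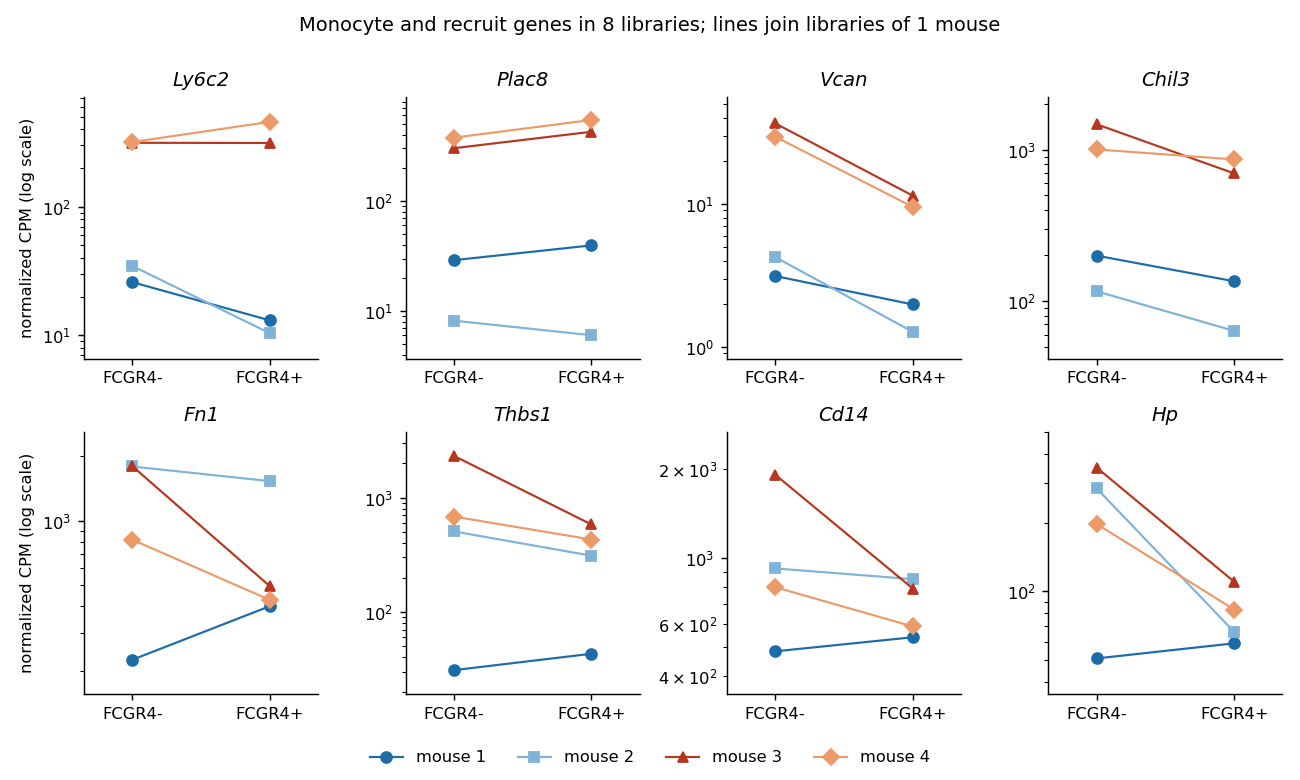
Normalized CPM (log scale) of the 8 genes in FCGR4- and FCGR4+ macrophages. Each line joins the 2 libraries of 1 mouse, blue for mice 1 and 2 and red or orange for mice 3 and 4. The red and orange points lie above all blue points for *Ly6c2*, *Plac8*, *Vcan*, and *Chil3*, and the points of these mice mix for the other 4 genes.

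A pair of the 8 genes have a near-identical neighbor, which bears on what their counts measure, because the authors counted read pairs that map to several places at each of them. *Ly6c2* and *Ly6c1*, which encode closely related forms of the Ly6C surface protein, share 384 of 393 coding bases (97.7%), and 13.9% of the 50-base words of *Ly6c2* transcripts also occur in *Ly6c1*. *Chil3* and *Chil4*, which encode the chitinase-like proteins Ym1 and Ym2, share 1124 of 1177 compared coding bases (95.5%), and 16.9% of the *Chil3* words occur in *Chil4*. Counting every other gene, *Ly6c2* shares 14.5% of its words and *Chil3* 26.9%. A stretch of 100 coding bases of each gene is shown, read on the coding strand of GRCm38 (the same assembly as mm10) at chr15:75108612-75108711 for *Ly6c2*, chr15:75045471-75045570 for *Ly6c1*, chr3:106149734-106149833 for *Chil3*, and chr3:106203684-106203783 for *Chil4*, with the bases in which the 2 copies differ in capitals.
Ly6c2: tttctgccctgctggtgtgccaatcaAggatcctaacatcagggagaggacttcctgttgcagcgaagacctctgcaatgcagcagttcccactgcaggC
Ly6c1: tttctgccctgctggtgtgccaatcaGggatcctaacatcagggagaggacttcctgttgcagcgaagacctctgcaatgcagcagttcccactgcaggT
Chil3: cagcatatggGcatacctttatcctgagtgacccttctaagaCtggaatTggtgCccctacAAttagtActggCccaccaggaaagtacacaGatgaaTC
Chil4: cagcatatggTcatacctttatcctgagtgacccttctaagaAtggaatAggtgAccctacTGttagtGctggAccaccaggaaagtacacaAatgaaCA
The *Ly6c2* stretch differs from *Ly6c1* at 2 bases, and the *Chil3* stretch differs from *Chil4* at 11. *Vcan*, *Plac8*, *Cd14*, and *Hp* share none of their 50-base words with another gene, *Fn1* shares 2.51%, and *Thbs1* 1.89%. Strand was not used in counting, and 2.50% of the exon bases of *Fn1* and 3.43% of those of *Thbs1* overlap an annotated gene on the other strand (*Apol7d* and *Gm29233*).

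The promoters of *Ly6c2* and *Plac8* are shown because these genes had the largest fitted differences between the mice of the 2 ID prefixes. They are the 250 bases before the RefSeq transcript start on GRCm38.p6, both on the minus strand, at chr15:75111972-75112221 and chr5:100572206-100572455, with matches to GAGGAA, the core of the motif bound by the myeloid factor PU.1, in capitals on either strand.
Ly6c2 promoter: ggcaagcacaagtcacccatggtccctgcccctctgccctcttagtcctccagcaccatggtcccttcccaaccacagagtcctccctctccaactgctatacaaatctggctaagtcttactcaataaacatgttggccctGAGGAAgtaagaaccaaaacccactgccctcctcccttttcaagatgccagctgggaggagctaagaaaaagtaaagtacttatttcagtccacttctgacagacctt
Plac8 promoter: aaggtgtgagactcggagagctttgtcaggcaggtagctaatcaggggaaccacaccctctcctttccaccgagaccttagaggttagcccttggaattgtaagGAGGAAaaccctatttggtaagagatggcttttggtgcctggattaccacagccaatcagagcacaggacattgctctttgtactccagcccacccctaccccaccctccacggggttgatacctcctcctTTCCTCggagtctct
The first holds 1 match and the second holds 2, a second annotated start of *Ly6c2* (chr15:75111938-75112187) holds 2, and 23.3% of the 32851 promoters in the table hold at least 1. The promoters of *Vcan* and *Chil3* held none. A second start of *Plac8* had a match to TTGCNNAA (a C/EBP motif, present in 9.56% of promoters), and no promoter of these 4 genes matched GAAANNGAAA (an interferon regulatory factor motif, present in 2.98%).

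The libraries held between 35992794 and 66856746 counts, so that 3 counts correspond to at most 0.0883 normalized CPM, and each of the 8 genes had at least 61 counts in every library. *Fcgr4*, the gene the cells were sorted on, measured 48.5, 52.2, 81.1, and 82.9 normalized CPM in the FCGR4- libraries of mice 1 to 4 and 215, 139, 208, and 236 in the FCGR4+ libraries. The populations did not overlap for it, in the direction of the labels. Macrophage markers were high in every library, with *Adgre1*, the F4/80 antigen, between 684 and 2386 normalized CPM and *Cd68* between 1331 and 2238. Counted per gene length (TPM), the mean levels of the 8 genes in FCGR4- cells ran in the order *Cd14* (1093 ± 652), *Chil3* (733 ± 685), *Thbs1* (246 ± 274), *Hp* (229 ± 131), *Plac8* (196 ± 210), *Fn1* (164 ± 105), *Ly6c2* (109.7 ± 107), and *Vcan* (2.19 ± 2.07; all SD, n = 4). No neighbors in that order differed by more than the sum of their SDs. In FCGR4+ cells *Cd14* (652 ± 171 TPM) was again the highest and *Vcan* (0.562 ± 0.433 TPM; SD, n = 4) the lowest. Together the 8 genes made up between 0.109% and 0.878% of a library's counts, with the lowest share in the FCGR4- cells of mouse 1 and the highest in those of mouse 3.

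The first comparison asked whether the 8 genes differ between FCGR4+ and FCGR4- macrophages of the same mouse. Of the 8 genes, 1 passed as lower in FCGR4+ cells in edgeR's paired quasi-likelihood fit, where 1.19% of all genes tested did, and 0 passed as higher, where 0.0819% did. At an unadjusted P under 0.05, 3 of the 8 were lower and 0 higher, where 6.67% of all genes tested were lower and 3.1% higher. DESeq2 with the same paired model called 3 lower and 0 higher, where it called 4.87% of all genes lower and 1.12% higher. With no filter on low counts 4 were lower, where 2.35% of 38021 genes were, and with no replicate block 0 were, where 0.275% were. The log2 fold change was negative for 7 of the 8 genes, with a median of -0.62, and the median of all genes tested was -0.00. In 4 of 4 mice, 2 of the 8 genes were lower in FCGR4+ cells, as were 10.4% of all genes tested.

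**Figure D2:**
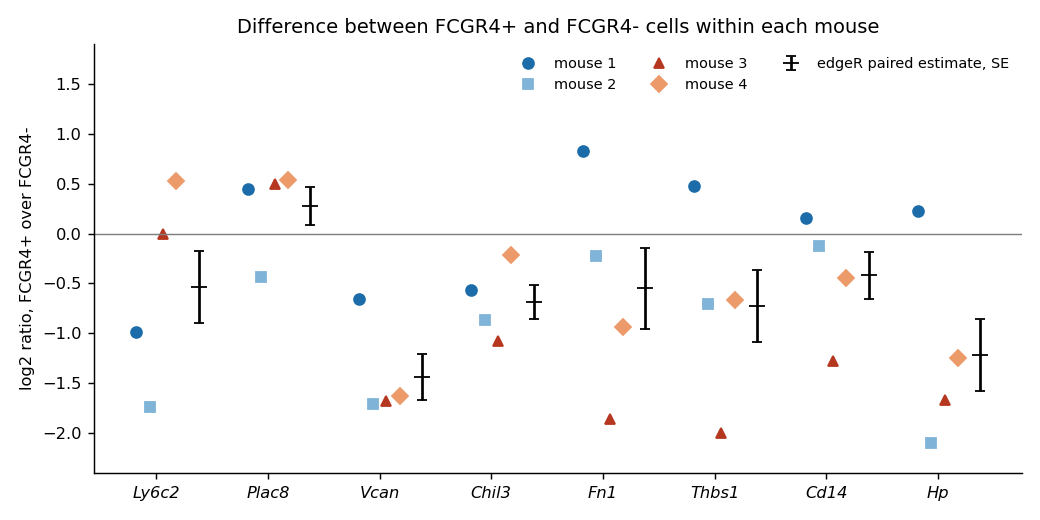
Log2 ratio of FCGR4+ over FCGR4- macrophages for the 8 genes in each mouse (points), with the paired edgeR estimate and its standard error (SE, black). The 4 mice lie below 0 for *Vcan* and *Chil3*. For *Fn1*, *Thbs1*, *Cd14*, and *Hp*, mouse 1 lies above 0 and the other 3 mice below it.

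Surface and intracellular genes of the classical monocyte come first. *Ly6c2* (chromosome 15, 75108158 to 75111970) encodes the Ly6C antigen that defines the classical subset. It measured 25.9, 34.6, 315, and 319 normalized CPM in the FCGR4- libraries of mice 1 to 4. In the FCGR4+ libraries it measured 13.05, 10.4, 314, and 458. The populations overlapped, and mice 3 and 4 were high in both, while in mice 1 and 2 it was low and lower still in the FCGR4+ cells. The paired log2 fold change was -0.54 (SE 0.36, adjusted P = 0.641, edgeR), and the sign turned to 0.20 with no replicate block. Within mice 1 and 2 alone it was -1.36 (adjusted P = 0.155, edgeR), and within mice 3 and 4 alone it was 0.24 (adjusted P = 0.505, edgeR).

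*Plac8* (chromosome 5, 100553725 to 100572245) encodes a small cysteine-rich protein abundant in monocytes and granulocytes. Its levels were 29.0, 8.18, 301, and 375 normalized CPM in FCGR4- cells of mice 1 to 4, and 39.5, 6.03, 425, and 544 in FCGR4+ cells. It was the 1 gene of the 8 with a positive estimate, was the higher of the pair in FCGR4+ cells of 3 mice, and had the widest range over the 8 libraries, 90.2-fold between the FCGR4+ cells of mouse 2 and of mouse 4. The populations overlapped. The paired log2 fold change was 0.28 (SE 0.19, adjusted P = 0.648, edgeR).

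*Cd14* (chromosome 18, 36725074 to 36726736) encodes the co-receptor that hands lipopolysaccharide to TLR4. It measured 484, 923, 1913, and 797 normalized CPM in FCGR4- cells of mice 1 to 4. In FCGR4+ cells it measured 540.1, 848, 789, and 587. Its FCGR4+ libraries all lay within the range of the FCGR4- libraries, of which that of mouse 3 stood highest, and its range over the 8 libraries, 3.95-fold, was the narrowest of the 8 genes. The log2 fold change was -0.42 (SE 0.24, adjusted P = 0.596, edgeR). In mice 1 and 2 alone it was 0.02.

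Genes for secreted matrix proteins followed. *Vcan* (chromosome 13, 89655312 to 89742509) encodes versican, a large chondroitin sulfate proteoglycan that binds hyaluronan and is a standard marker of classical monocytes. In FCGR4- cells of mice 1 to 4 it measured 3.12, 4.24, 36.7, and 29.6 normalized CPM, and in FCGR4+ cells 1.97, 1.27, 11.4, and 9.53. Within every mouse the FCGR4+ library was the lower one, while across mice the populations overlapped, because the FCGR4+ libraries of mice 3 and 4 stood above the FCGR4- libraries of mice 1 and 2. The paired log2 fold change was -1.44 (SE 0.23, adjusted P = 0.0602, edgeR), or 2.71-fold lower in FCGR4+ cells. The call depended on the pairing and on the mice. With no replicate block the adjusted P was 0.919, without mouse 2 it was 0.156, without mouse 3 it was 0.126, and without mouse 4 it was 0.209. Without mouse 1 it was 0.0425 and the log2 fold change -1.68. In mice 3 and 4 alone the log2 fold change was -1.68 (adjusted P = 0.0955, edgeR), and in mice 1 and 2 alone -1.19 (adjusted P = 0.609, edgeR).

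*Fn1* (chromosome 1, 71585520 to 71653200) encodes fibronectin. In FCGR4- cells of mice 1 to 4 it measured 225, 1793, 1799, and 817 normalized CPM, and in FCGR4+ cells 401, 1532, 495, and 428. The populations overlapped, with both libraries of mouse 2 high and the FCGR4- library of mouse 1 the lowest. The log2 fold change was -0.55 (SE 0.40, adjusted P = 0.659, edgeR), and in mice 1 and 2 alone it was 0.30.

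*Thbs1* (chromosome 2, 118111876 to 118127133) encodes thrombospondin-1, a matrix glycoprotein that monocytes and platelets release. It measured 30.9, 507, 2327, and 683 normalized CPM in FCGR4- cells of mice 1 to 4, and 43.0, 310.4, 583, and 430.3 in FCGR4+ cells. Mouse 1 was low in both populations, and its highest value, in the FCGR4- cells of mouse 3, was 75.3 times its lowest. The populations overlapped, and the log2 fold change was -0.72 (SE 0.36, adjusted P = 0.558, edgeR). It was -0.12 in mice 1 and 2 alone and -1.36 in mice 3 and 4 alone, and ran from -1.12 without mouse 1 to -0.32 without mouse 3. *Thbs1* passed when no filter on low counts was applied (adjusted P = 0.0832, edgeR).

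The other 2 genes encode secreted proteins made by maturing and activated myeloid cells. *Hp* (chromosome 8, 109575128 to 109579172) encodes haptoglobin, which binds free hemoglobin. It measured 50.6, 283, 349.6, and 197 normalized CPM in FCGR4- cells of mice 1 to 4. In FCGR4+ cells it measured 59.0, 66.2, 109.9, and 83.0. In mice 2, 3, and 4 the FCGR4- library stood above all 4 FCGR4+ libraries, and mouse 1, with its FCGR4- library lowest of the 8, made the populations overlap. The log2 fold change was -1.22 (SE 0.36, adjusted P = 0.297, edgeR). It passed with DESeq2 (adjusted P = 0.00426), in mice 3 and 4 alone (log2 fold change -1.48, adjusted P = 0.0955, edgeR), and without mouse 1 (log2 fold change -1.67, adjusted P = 0.0571, edgeR).

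*Chil3* (chromosome 3, 106147554 to 106167564) encodes Ym1, a chitinase-like protein of monocytes, neutrophils, and macrophages exposed to interleukin 4. It measured 199, 116, 1470.2, and 1003 normalized CPM in FCGR4- cells of mice 1 to 4, and 135, 63.5, 696, and 861 in FCGR4+ cells. As with *Vcan*, the FCGR4+ library was lower in every mouse, and mice 3 and 4 stood above mice 1 and 2 whatever the population. The log2 fold change was -0.68 (SE 0.17, adjusted P = 0.198, edgeR), and it passed with DESeq2 (adjusted P = 0.00618). *Chil4*, its near-identical neighbor, measured between 1.48 and 35.2 normalized CPM, had a log2 estimate of -0.83 (adjusted P = 0.214, edgeR), and was also lower in 4 of 4 mice. The counts of these 2 genes are uncertain where the sequence is shared.

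Other cell types moved with these differences. In bulk samples, fewer cells of a type and less RNA per cell cannot be told apart. Neutrophils express *Hp*, *Chil3*, and *Cd14*, and 8 of 12 tested neutrophil markers were lower in FCGR4+ cells. Their summed level ran from 425 to 2865 normalized CPM in FCGR4- libraries and from 134 to 614 in FCGR4+ libraries and was lower in 4 of 4 mice. Of the defining markers, *Ly6g*, which the gate was meant to remove, lay between 0.0623 and 5.45 normalized CPM, *Mpo* had at most 3 counts in any library, and *S100a8* reached 1211 in FCGR4- cells of mouse 3. Fibroblasts, which the gate for CD45+ CD11b+ cells was meant to leave out, express *Fn1*, *Thbs1*, and *Vcan*, and 8 of 11 fibroblast markers were lower in FCGR4+ cells, with sums of 403 to 1621 in FCGR4- and 158 to 302 in FCGR4+ libraries. The fibroblast gene *Pdgfra* was at 2.68 to 17.5 normalized CPM in FCGR4- libraries and 1.11 to 1.85 in FCGR4+ libraries. The fibroblast count rested on single mice, at 0 without mouse 1, 6 without mouse 2, 2 without mouse 3, 1 without mouse 4, and 3 with no replicate block, while the neutrophil count stayed at 6 to 7 with each mouse left out and was 0 with no replicate block. The part of these cells in the levels of *Vcan*, *Hp*, and *Chil3* was not tested.

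Markers of further cell types were also lower in FCGR4+ libraries. All 8 tested mast cell and basophil markers were lower, with sums of 196 to 2083 normalized CPM in FCGR4- and 6.85 to 24.4 in FCGR4+ libraries, and *Cpa3*, a mast cell protease, fell from 215 ± 225 to 2.57 ± 1.82 (SD, n = 4). Of the dendritic cell markers, 4 of 8 were lower, with sums of 56.7 to 105.5 and 17.0 to 23.8 normalized CPM, and *Flt3* fell by 3.28 on the log2 scale (adjusted P = 0.0516, edgeR). T and NK cell markers were lower in 5 of 7 cases, with sums of 15.4 to 51.8 and 3.61 to 8.05 normalized CPM, and B cell markers in 2 of 4. Of the mesothelial markers *Msln* was lower (log2 fold change -2.23, adjusted P = 0.0874, edgeR), and of the platelet markers *Itga2b* (0.596 to 8.51 normalized CPM in FCGR4- and at most 0.208 in FCGR4+ libraries). The summed platelet markers did not follow *Itga2b* and were higher in the FCGR4+ library of mice 2, 3, and 4, at 418, 202, 599.9, and 573 normalized CPM in FCGR4- and 315, 234, 1628, and 995 in FCGR4+ cells of mice 1 to 4. Without mouse 1 or mouse 2 the dendritic cell count was 2, that of T and NK cells 1, and those of B cells and platelets 0. Without mouse 4 the T and NK cell count was 2 and the B cell count 1, and the *Msln* call was lost without mouse 1, 2, or 3. No marker of plasmacytoid dendritic cells, eosinophils, endothelial cells, adipocytes, red cells, or macrophages passed. At an unadjusted P under 0.05, 7 of the 9 macrophage markers were higher, as they were with DESeq2, 2 plasmacytoid dendritic cell and 2 endothelial markers were lower, and 0 eosinophil, adipocyte, or red cell markers were. DESeq2 called 2 plasmacytoid and 1 endothelial marker lower. Of 8 genes that cell isolation induces, 0 passed in edgeR or DESeq2 and 1 was lower at an unadjusted P under 0.05. *Siglech*, the defining plasmacytoid marker, was at most 1.08 normalized CPM.

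**Figure D3:**
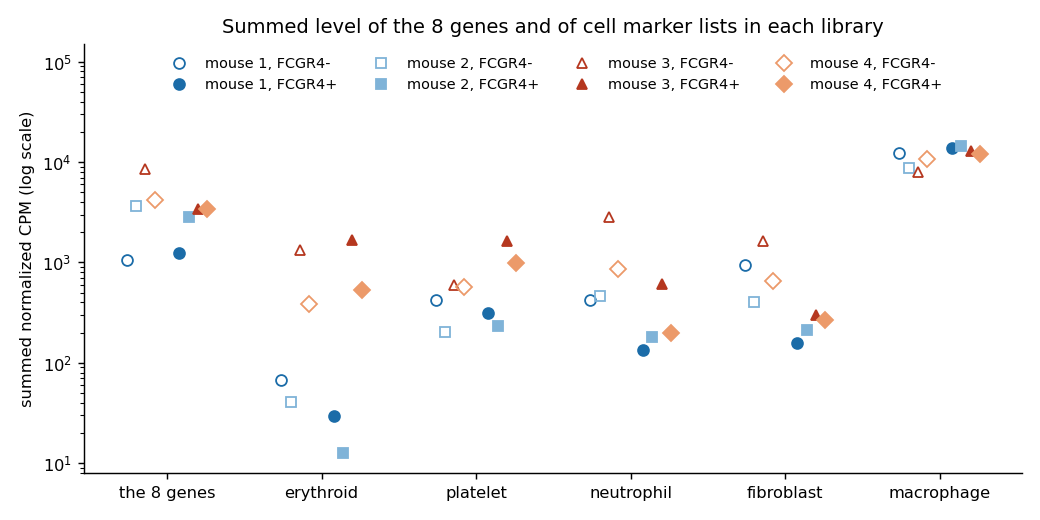
Summed normalized CPM (log scale) of the 8 genes and of lists of cell markers in each library, open symbols for FCGR4- and filled symbols for FCGR4+ cells. Red cell markers reach at most 67.5 in mice 1 and 2 and at least 386 in mice 3 and 4, neutrophil and fibroblast markers are lower in the FCGR4+ library of every mouse, and macrophage markers stay between 7956 and 14296.

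Other genes of these programs were read from lists of relatives and partners. Of 28 further classical monocyte genes, 3 were lower in FCGR4+ cells and 0 higher, and the median log2 fold change was -0.26. Among them were *Mmp8*, a collagenase gene of neutrophils (log2 fold change -1.72, adjusted P = 0.0831, edgeR), and *Il1b*, the gene of the cytokine interleukin 1 beta (-1.61, adjusted P = 0.0666). Both were lower in 4 of 4 mice, and at an unadjusted P under 0.05, 9 of the 28 were lower and 3 higher. The count of 3 fell to 1 without mouse 2 or mouse 3 and to 0 without mouse 4. *Ccr2*, the receptor that classical monocytes use to leave the marrow, measured 416 ± 252 normalized CPM in FCGR4- and 408 ± 214 in FCGR4+ cells (SD, n = 4), with a log2 fold change of 0.01 (adjusted P = 0.989, edgeR).

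Of 12 nonclassical monocyte genes, 2 were higher in FCGR4+ cells and 0 lower. Of the 12 log2 fold changes, 6 were negative, with a median of -0.0036, and the summed level of the list was lower in FCGR4+ cells of mice 2, 3, and 4, at 343, 566, 334, and 322 normalized CPM in FCGR4- and 606, 379.7, 239, and 211 in FCGR4+ cells of mice 1 to 4. The genes that passed were at low levels. *Cd300e*, an activating receptor of nonclassical monocytes, measured 1.39, 1.38, 0.469, and 2.52 normalized CPM in FCGR4- cells of mice 1 to 4 and 16.9, 4.62, 2.62, and 7.89 in FCGR4+ cells. The libraries did not overlap. *S1pr5*, a sphingosine phosphate receptor that nonclassical monocytes need to leave the marrow, was at most 0.369 in FCGR4- libraries and measured 7.10, 0.790, 0.335, and 0.145 in the FCGR4+ libraries of mice 1 to 4, higher in every mouse, with the highest level in mouse 1. Both calls were lost when mouse 1 or mouse 2 was left out, and 1 gene of the list passed without mouse 4. *Nr4a1*, the transcription factor on which nonclassical monocytes depend, did not pass, at 95.9 ± 35.2 and 72.9 ± 23.5 normalized CPM (SD, n = 4).

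Of 17 genes for monocyte recruitment, 1 was higher in FCGR4+ cells and 1 lower, and the median log2 fold change was -0.07. The higher one was the chemokine gene *Ccl8*, with 47.5, 89.3, 444, and 215 normalized CPM in FCGR4- and 113, 116, 1548, and 756 in FCGR4+ cells of mice 1 to 4 (log2 fold change 1.32, adjusted P = 0.0994, edgeR). It was higher in every mouse, and no higher gene of this list passed without mouse 1, 3, or 4. *Ccl2*, which encodes the main ligand of CCR2, did not pass, at -0.19 (adjusted P = 0.730, edgeR).

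In the lists of direct partners of the 8 genes, *Thbs2* and *Cd163* passed, both as lower. Over all genes tested, 1.19% passed as lower and 0.0819% as higher. In the thrombospondin family and receptors, 1 of 9 tested genes was lower, *Thbs2* (5.02 ± 2.33 to 1.08 ± 0.465 normalized CPM, SD, n = 4; log2 fold change -2.21, adjusted P = 0.0666, edgeR), while the thrombospondin-1 receptors *Cd36* (log2 fold change 0.41) and *Cd47* (0.23) did not pass. Among genes that handle hemoglobin, 1 of 6 was lower, *Cd163*, the receptor that takes up the haptoglobin and hemoglobin complex. It measured 53.8, 23.7, 80.4, and 51.4 normalized CPM in FCGR4- and 35.5, 12.7, 39.0, and 21.1 in FCGR4+ cells of mice 1 to 4 (log2 fold change -0.96, adjusted P = 0.0602, edgeR), and was lower in every mouse. The calls of *Thbs2* and *Cd163* were lost whichever mouse was left out. By edgeR, 0 of 8 tested Ly6 family genes, 0 of 8 fibronectin partners, 0 of 5 versican and hyaluronan partners, 0 of 13 genes of CD14 and TLR4 signaling, and 0 of 7 chitinase-like and interleukin 4 response genes passed. At an unadjusted P under 0.05, those lists held 4, 2, 2, 0, and 2 lower and 1, 2, 0, 2, and 1 higher genes in that order. DESeq2 called 3, 2, 1, 0, and 2 lower and 0, 1, 0, 1, and 1 higher. On the log2 scale, *Ly6c1* was at -1.07 (adjusted P = 0.383, edgeR), *Tlr4* at 0.14 (adjusted P = 0.778), *Itga5*, the integrin subunit that binds fibronectin, at -0.77 (adjusted P = 0.368), *Cd44*, the hyaluronan receptor, at 0.04 (adjusted P = 0.944), and *Chil1* at -0.42 (adjusted P = 0.715).

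The second comparison set mice 3 and 4 against mice 1 and 2, the groups that the animal ID prefix defines. It was made after the values had been seen, with the counts of both populations summed for each mouse, and with 2 mice in each group it has little power. What the prefix stands for is unknown, so any difference in age, cohort, sort, or library preparation cannot be told apart from it. The libraries of mice 3 and 4 all stood above those of mice 1 and 2 for 4 of the 8 genes, as for 8.49% of all genes tested. In edgeR 2 of the 8 passed as higher in mice 3 and 4, where 28 genes, or 0.164% of all tested, did. DESeq2 called 4 of the 8 higher, where it called 6.22% of all genes.

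*Ly6c2* was 4.13 higher on the log2 scale in mice 3 and 4 (SE 0.20, adjusted P = 0.0402, edgeR) and *Vcan* 3.16 (SE 0.19, adjusted P = 0.0426). *Plac8* had the largest estimate, 4.35, with the largest SE of these 4 genes, 0.82, since mice 1 and 2 differed from each other in it (adjusted P = 0.221, edgeR). It ran from 3.62 without mouse 2 to 5.88 without mouse 1. *Chil3* stood at 3.01 (SE 0.37, adjusted P = 0.178, edgeR). For these 4 genes the difference appeared in both populations. *Ly6c2* differed by 5.04 in FCGR4+ libraries alone and by 3.41 in FCGR4- libraries alone, *Plac8* by 4.41 and 4.20, *Vcan* by 2.69 and 3.19, and *Chil3* by 2.97 and 2.99, all on the log2 scale. No call was kept when any of the 4 mice was left out, which leaves 1 mouse on one side that is assumed to vary like the others. The adjusted P of *Ly6c2* then lay between 0.118 and 0.215 by edgeR and that of *Vcan* between 0.162 and 0.215.

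For the other 4 genes the libraries of the mice overlapped, and none passed in edgeR's fit of the filtered genes. *Thbs1* was 2.21 higher in mice 3 and 4 on the log2 scale, with a SE of 1.15 (adjusted P = 0.396, edgeR). It ran from 1.33 without mouse 1 to 4.79 without mouse 2, and with no filter on low counts *Thbs1* passed (2.20, adjusted P = 0.0377, edgeR). *Hp* was 0.83 higher (SE 0.54, adjusted P = 0.482, edgeR) and *Cd14* 0.56 (SE 0.42, adjusted P = 0.538). *Fn1* stood at -0.14 (SE 0.80, adjusted P = 0.942, edgeR), with a sign that changed when mouse 2 or mouse 4 was left out and in the FCGR4- libraries alone. For these genes mouse 1 held the lowest value in FCGR4- cells.

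**Figure D4:**
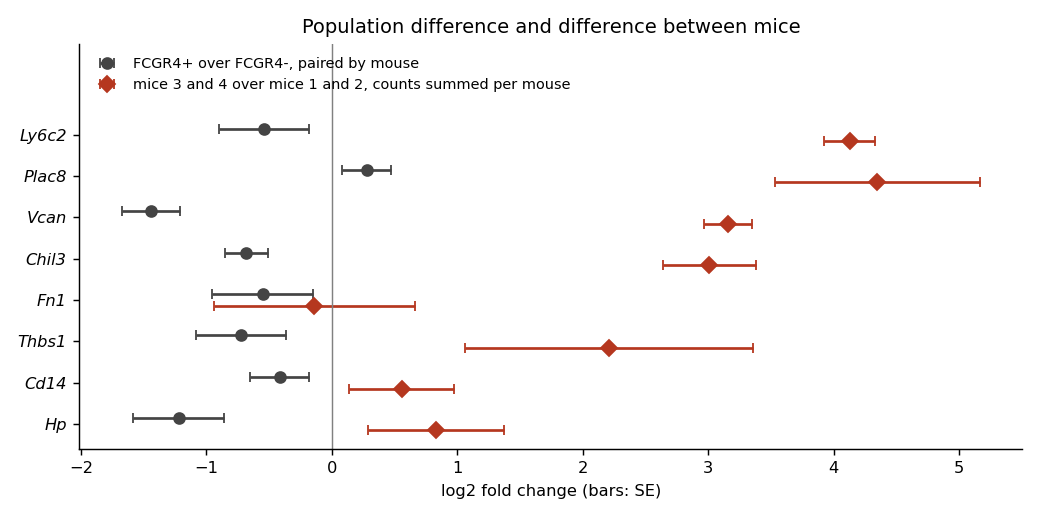
Log2 fold change of each gene between FCGR4+ and FCGR4- macrophages (grey circles) and between mice 3 and 4 and mice 1 and 2 (red diamonds), with standard errors from edgeR. *Ly6c2*, *Plac8*, *Vcan*, and *Chil3* lie between 3.01 and 4.35 for the mice and between -1.44 and 0.28 for the populations.

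Some relatives and recruitment genes separated by mouse as well. Over all genes tested, 8.49% were higher in every library of mice 3 and 4, and 0.164% passed as higher in edgeR. Of the 28 further classical monocyte genes, 11 were higher in every library of mice 3 and 4, among them *Ccr2*, at 176 to 288 normalized CPM in mice 1 and 2 and 517 to 725 in mice 3 and 4 (log2 difference 1.48, adjusted P = 0.196, edgeR). *Ms4a4c*, a membrane protein gene of the same list, passed (4.32, adjusted P = 0.0815, edgeR). Of the 17 recruitment genes, 6 separated in that direction and 3 passed, the CCR2 ligand genes *Ccl2* (4.34, adjusted P = 0.0426, edgeR), *Ccl7* (5.64, adjusted P = 0.0678), and *Ccl12* (6.10, adjusted P = 0.0874). *Ccl2* measured 24.8 to 40.0 normalized CPM in mice 1 and 2 and 559 to 843 in mice 3 and 4. Of the 12 nonclassical monocyte genes, 0 separated in that direction, 0 passed in edgeR, and 0 were higher at an unadjusted P under 0.05, where 9.17% of all genes tested were.

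Markers of other cells differed along the same line. All 4 red cell markers were higher in every library of mice 3 and 4, with a sum of 12.6 to 67.5 normalized CPM in mice 1 and 2 and 386 to 1660 in mice 3 and 4. The hemoglobin gene *Hbb-bs* reached at most 18.3 in mice 1 and 2 and at least 110.0 in mice 3 and 4. None of the 4 passed in edgeR, and all 4 had an unadjusted P under 0.05. Platelet markers summed to 202 to 418 and 572 to 1628 normalized CPM, and of the 4 tested, *Pf4* and *Ppbp* separated and *Ppbp* passed (log2 difference 5.62, adjusted P = 0.0863, edgeR). Neutrophil markers overlapped, at 134 to 462 and 200 to 2865, and of the 12 tested 8 were higher in mice 3 and 4 at an unadjusted P under 0.05, and *Cd177* separated and passed (log2 difference 3.03, adjusted P = 0.0426, edgeR). Mesothelial markers did not overlap, with sums of 1.06 to 7.25 in mice 1 and 2 and 8.85 to 46.4 in mice 3 and 4, and of the 6 tested 3 separated, 4 were higher at an unadjusted P under 0.05, and 0 passed. The macrophage sums overlapped, at 8780 to 14296 in mice 1 and 2 and 7956 to 12895 in mice 3 and 4. The part of blood and mesothelial cells in the levels of *Ly6c2*, *Plac8*, *Vcan*, and *Chil3* was not tested.

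Whether the population difference itself depended on the mice was tested as an interaction in edgeR, and 0 of the 8 genes and 0 of all 17095 passed. At an unadjusted P under 0.05 there were 3 of the 8, and 13.8% of all genes. The 3 were *Ly6c2* (difference of log2 fold changes 1.62, SE 0.33, adjusted P = 0.303), *Fn1* (-1.70, SE 0.46, adjusted P = 0.310), and *Cd14* (-0.88, SE 0.32, adjusted P = 0.341), where a positive value means a ratio of FCGR4+ to FCGR4- that was higher in mice 3 and 4.

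Genes with the most similar profile were found for each of the 8 as those with the smallest root mean square difference of log2 CPM over the 8 libraries, after each gene was centered on its mean. These values describe the same 8 libraries and carry no test. The nearest to *Ly6c2* was *Ccl2* (root mean square difference 0.335), followed by *Trim30b* (0.560) and *Fcnb*, which encodes ficolin B (0.603). *Fcnb* was at most 1.59 normalized CPM and at 0 in the FCGR4+ library of mouse 2. Nearest to *Vcan* were *Cd177*, which encodes a glycoprotein of the neutrophil surface (0.205), *Trim30b* (0.435), and *Mxd1* (0.473). Nearest to *Plac8* were *Ms4a4c* (0.606), *Ccl2* (0.804), and *Ifi208* (0.878). The neighbors of those 3 genes also separated mice 3 and 4 from mice 1 and 2, as did those of *Chil3*. All were chosen for a like profile over the same libraries, so the shared split adds no support. The nearest to *Chil3* were *Gm6522* (0.113) and *Chil4* (0.138), and then *5330439M10Rik* (0.413), which was at most 0.506 normalized CPM. Read pairs that map to both *Chil3* and *Chil4* were counted at each, and their part in this likeness was not tested.

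The matrix and haptoglobin genes had other neighbors. *Fn1* lay nearest to *Tulp2* (0.209), *Mmp14*, which encodes a membrane-bound matrix protease (0.313), and *Spsb4* (0.339). *Thbs1* lay nearest to *Ereg*, which encodes the growth factor epiregulin (0.487), *Gtsf1* (0.556), and *Egln3*, an oxygen-sensing prolyl hydroxylase gene (0.576). Some of these neighbors were barely detected. In mouse 1 *Ereg* was at 0 in FCGR4+ and *Gtsf1* at 0 in FCGR4- cells, and *Tulp2* was at most 1.18 normalized CPM in any library. *Hp* lay nearest to *Ero1l*, which encodes an oxidase of the endoplasmic reticulum (0.285), *Mcemp1* (0.365), and *Sphk1* (0.365), and *Cd14* to *Grina* (0.134), *Cyp4f18* (0.155), and *Gm2451* (0.177). Among the 8 genes themselves, *Chil3* and *Vcan* were the closest pair (0.535), *Cd14* and *Hp* followed (0.618), and *Thbs1* was the farthest from any of the others (1.26 to *Hp*).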

How the data were processed

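Sorted eWAT macrophages of 4 mice (8 libraries) were sequenced by the authors. The deposited values are unnormalized counts of read pairs per gene, made by the authors with STAR on mm10 and featureCounts 1.6.3 on GENCODE vM18; per the file headers, multi-mapping pairs counted once per location and strand was ignored. Populations and mouse numbers came from the labels. A minimum of 10 counts in 4 or more libraries left 17095 genes, which were scaled by TMM and tested with edgeR 4.0.16 (R 4.3.3), mouse as a block, Benjamini-Hochberg adjustment, threshold 0.1. Both populations of a number came from 1 mouse, and their deviations correlated in every mouse (0.291 to 0.428). Alternatives were no block, DESeq2 1.42.0, other scalings, filters, and thresholds, edgeR's newer quasi-likelihood method, leaving out each mouse, and mice of 1 ID prefix. TPM used the deposited gene lengths. Fits were tested on simulated counts. Sequence came from GENCODE and RefSeq tables of GRCm38; promoters were taken for 4 of the 8 genes.

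The 8 genes and all lists were chosen with earlier results of these data known. Named are the 8 genes, genes past the threshold in the lists of related genes and partners, fixed partners and defining markers, and the 3 nearest profiles of each gene. For 1 gene of those lists past the threshold the values are not reported here, and marker lists are given mainly as counts and sums. The comparison by ID prefix was added after the values were seen. Floors (3 counts) cover counting error only. The SDs were taken over mice, and the SEs came from the edgeR fits, so neither is limited to counting error.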

Additional observations from a re-analysis of the deposited data

Results flagged for a closer look

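Of 24 groups of 4 values examined among the 8 genes (log2 CPM in each population and the ratio within each mouse), 3 held a mouse far from the other 3, where chance gives about 1.2. The log2 ratio of *Vcan* was -0.65 in mouse 1 and between -1.71 and -1.63 in the other mice, a gap of 0.925 of the whole range. The log2 ratio of *Plac8* was -0.44 in mouse 2 and between 0.45 and 0.54 in the others, a gap of 0.907 of the range. *Fn1* stood at 1532 normalized CPM in the FCGR4+ library of mouse 2 and between 401 and 495 in the others, a gap of 0.842 of the range on the log2 scale. The cause was not tested for any of these.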

How the results depend on the processing

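Of the 8 genes, 1 passed as lower in FCGR4+ macrophages. The number was 0 with no replicate block, 3 with DESeq2 (*Vcan*, *Hp*, *Chil3*), 4 with no filter on low counts, 0 in mice 1 and 2 alone, 2 in mice 3 and 4 alone, 0 at a threshold of 0.05, and 0 to 2 when each mouse was left out. With no replicate block, *Vcan* was at -1.61 (no longer past the threshold) and *Ly6c2* at 0.20. In mice 1 and 2 alone, *Vcan* was at -1.19, *Fn1* at 0.30, and *Cd14* at 0.018, and in mice 3 and 4 alone *Ly6c2* was at 0.24 and *Hp*, now past the threshold, at -1.48. *Vcan* (-1.44) did not pass at 0.05 and lay between -1.68 and -1.36 with each mouse left out, where *Hp* lay between -1.67 and -0.92. DESeq2 called *Hp* (-1.22) and *Chil3* (-0.69), and with no filter on low counts *Hp* (-1.20), *Chil3* (-0.66), and *Thbs1* (-0.71) were called. With each mouse left out, *Ly6c2* lay between -0.91 and -0.15, *Plac8* between 0.18 and 0.49, *Fn1* between -1.005 and -0.13, *Cd14* between -0.61 and -0.15, and *Thbs1* between -1.12 and -0.32. The pairing changed no other call among the 8 genes. For the fits of fewer mice and the threshold of 0.05, the share of all genes called is not given here, so these counts stand without it.

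Of the partner lists, 5 genes were lower and 3 higher. The numbers were 0 and 0 with no replicate block, 20 and 9 with DESeq2, 22 and 8 with no filter, 1 and 1 in mice 1 and 2 alone, 5 and 1 in mice 3 and 4 alone, 11 and 7 with edgeR's newer method, 0 and 0 at 0.05, and 0 to 3 and 0 to 2 with each mouse left out. Of the marker lists, 37 genes were lower, against 9 with no replicate block, 23 in mice 1 and 2 alone, 12 in mice 3 and 4 alone, 20 at 0.05, and 17 to 28 with each mouse left out. As higher, 0 passed, against 7 with DESeq2 and 6 with no filter. Between the mice, 2 of the 8 genes passed, against 1 in FCGR4+ and 1 in FCGR4- libraries alone, 5 with no filter (*Ly6c2*, *Vcan*, *Plac8*, *Chil3*, and *Thbs1*), 4 with DESeq2, and 0 whichever mouse was left out. The estimate of *Fn1* turned from -0.14 to 0.39 in FCGR4- libraries alone and lay between -0.90 and 1.55 with each mouse left out (positive without mouse 2 or mouse 4), and that of *Cd14* turned to -0.013 in FCGR4+ libraries alone. The cause was not tested beyond the fewer mice or genes that an alternative leaves. Over all genes tested, 217 were called between the populations by the paired fit, 48 with no replicate block, 1024 by DESeq2, 1054 with no filter, and 629 by the newer method. Between the mice, the share of all genes called is given only for the main edgeR fit and DESeq2. The other counts between the mice, such as that with no filter, stand without it.

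Each of the 8 genes had at least 61 counts in every library, so counting error was small beside the spread between the 4 mice, and the depth set no limit for them. Library size alone moved the median of all genes to -0.09 and turned no sign among the 8 genes. Reads shared with *Ly6c1*, *Chil4*, and other genes could not be separated.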

Other observations

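The 28 genes past the threshold between the mice, all higher in mice 3 and 4, held several genes of known function beside *Ly6c2* and *Vcan*, named here after their values were seen. *Isg15*, which encodes a ubiquitin-like protein induced by interferon, measured 2.42 to 6.34 normalized CPM in the 4 libraries of mice 1 and 2 and 98.1 to 192 in those of mice 3 and 4 (log2 difference 4.78, adjusted P = 0.0592, edgeR). *Slfn4*, a Schlafen family gene of myeloid cells, measured 1.46 to 7.004 and 182 to 247 (5.804, adjusted P = 0.0180). *Oas1g*, an oligoadenylate synthetase gene, measured 23.9 to 33.8 and 97.8 to 173 (2.13, adjusted P = 0.0971), and *Zbp1*, a nucleic acid sensor gene, 14.8 to 34.6 and 104 to 158 (2.47, adjusted P = 0.0821). The libraries did not overlap for any of these 4 genes. They were picked from genes that passed on this same comparison, so this adds no support. *Csf1*, which encodes the macrophage growth factor, measured 6.93, 11.04, 81.1, and 62.3 in the FCGR4- libraries of mice 1 to 4 and 1.37, 2.97, 3.70, and 5.08 in the FCGR4+ libraries (2.91, adjusted P = 0.0874, edgeR). Mice 3 and 4 were higher than mice 1 and 2 within each population, while their FCGR4+ libraries lay below the FCGR4- libraries of mice 1 and 2, and *Csf1* also passed as lower in FCGR4+ cells (log2 fold change -3.10, adjusted P = 0.0448, edgeR).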
